A study of Homo sapiens with 33 samples.

Results

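The 10 genes described here mark eosinophils, basophils and mast cells, the granulocytes of allergy and of defence against parasites. They were taken by symbol from the deposited count table, in which all 10 were found among 85160 genes. CLC, EPX, PRG2, RNASE2 and RNASE3 encode proteins of the eosinophil granule or cytoplasm. HDC, MS4A2 and FCER1A serve histamine synthesis and IgE binding in mast cells and basophils, IL5RA is the chain of the interleukin-5 receptor that binds the cytokine, and GATA1 is the transcription factor needed for the eosinophil, mast cell, erythroid and megakaryocyte lineages. RNA was measured in NB4 cells, 1 established human line of acute promyelocytic leukaemia, whose cells stop maturing as promyelocytes. The drug was all-trans retinoic acid (ATRA) at 1 µM, which makes promyelocytic leukaemia cells mature, and the control was its solvent DMSO. Both were given for 4, 12, 24, 72 or 120 h, with fresh drug on day 3. Cells without treatment, taken at 0 h, complete the 11 groups. A group was 3 biological replicates, numbered 2, 4 and 5, and there were 33 libraries in all.

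Eosinophil granules carry very basic proteins that are made early, at the promyelocyte and myelocyte stages, and stored. Eosinophil peroxidase, major basic protein and the eosinophil ribonucleases are toxic to parasites and to host cells, and interleukin-5 keeps the cells alive. Basophils and mast cells make histamine from histidine with the enzyme histidine decarboxylase and release it when IgE on the high-affinity receptor is cross-linked.

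Library totals lay between 18341456 and 33490654 fragments (median 25927472). Levels are CPM, counts scaled to a common library total, with library sizes scaled by TMM. Differences were tested with edgeR's quasi-likelihood test on 22971 genes with Benjamini-Hochberg adjustment and a threshold of 0.05. Of the promyelocyte granule genes MPO, PRTN3, AZU1 and CTSG averaged 11164, 1001, 115 and 46.6 CPM in untreated cells, while ELANE, the neutrophil elastase of the same granules, stood at 0.303 CPM there and had 160 counts in all libraries together. FCER1A, the IgE-binding alpha chain of the receptor, had 0 counts in all 33 libraries, which allows a level of up to 0.0035 CPM over their 855792269 fragments. The other 9 genes passed the filter on low counts. In bulk RNA, fewer cells of a type and less RNA per cell cannot be told apart.

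After 120 h of ATRA, CLC was higher and EPX, PRG2, RNASE2, RNASE3, HDC, MS4A2 and IL5RA were lower than in DMSO cells. These are 8 of the 9 tested genes, against 70.6% of all genes tested at that time, and the 7 lower ones stand against 35.6% of all genes. The median log2 fold change of the 9 genes was -2.43 at 120 h, beside -0.03 over all genes tested. At 4 h 2 of 9 passed, HDC lower and GATA1 higher, against 24.7% of all genes. At 12 h EPX, PRG2 and HDC were lower and GATA1 higher, which is 4 of 9 against 38.7%. At 24 h CLC and RNASE3 were higher and EPX, PRG2, RNASE2 and HDC lower, which is 6 of 9 against 33.2%. At 72 h CLC and GATA1 were higher and EPX, PRG2, RNASE2, HDC and MS4A2 lower, which is 7 of 9 against 64.7%. The shares at 4, 12 and 72 h lie near those of all genes.

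**Figure D1:**
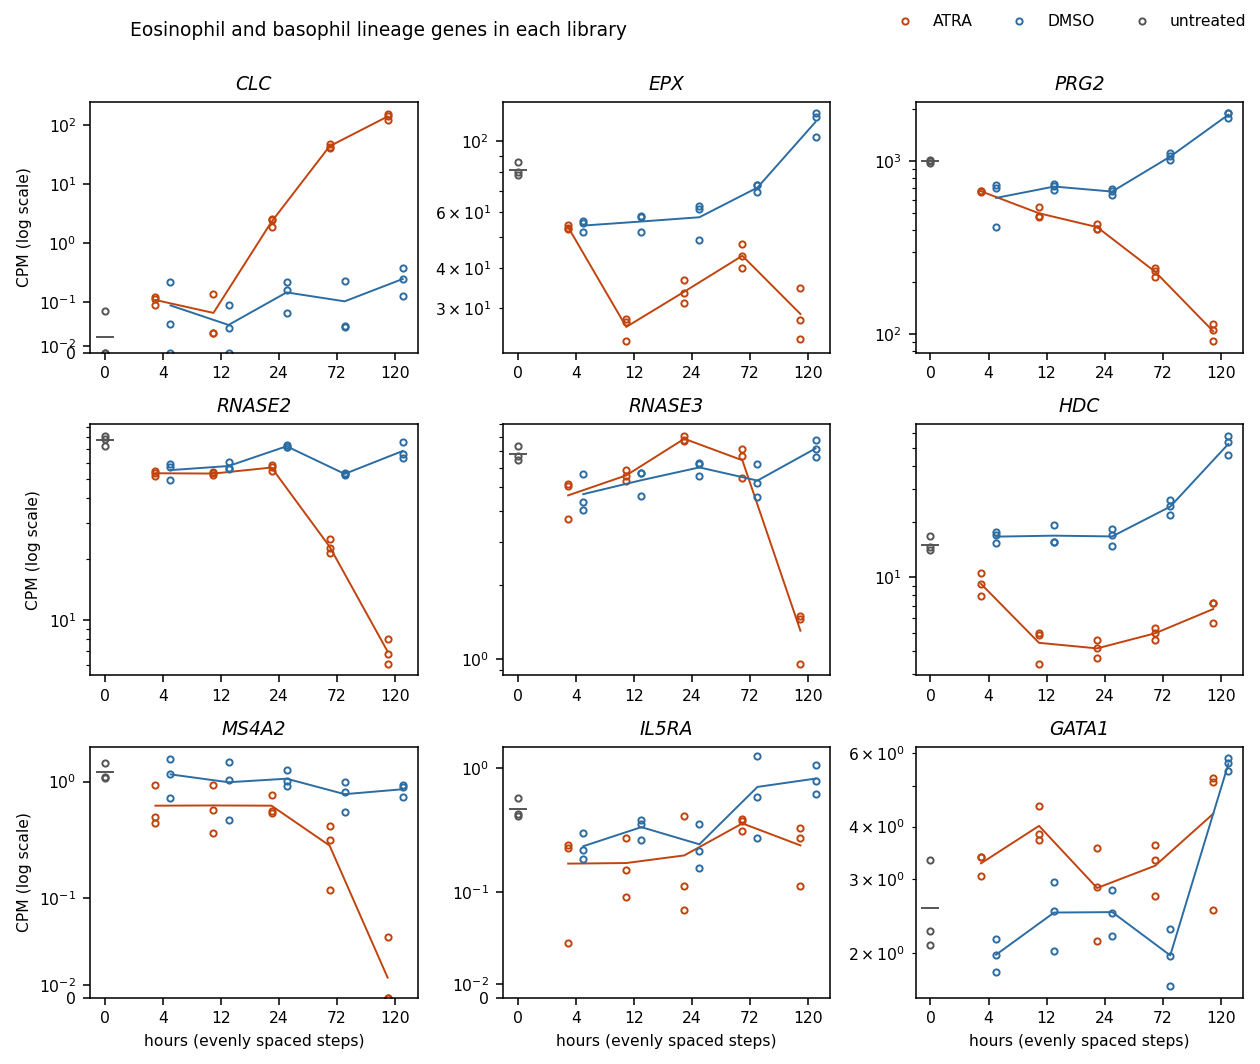
CPM (log scale, linear near 0 for CLC, MS4A2 and IL5RA) of the 9 genes with counts, against hours of culture in evenly spaced steps. Circles are single libraries (3 a group) and lines join group means of ATRA and DMSO cells, with untreated cells at 0 h. In ATRA cells CLC climbs to a mean of 137.6 CPM at 120 h while PRG2 ends at 104 CPM, against 0.245 and 1859 CPM in DMSO cells.

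CLC encodes galectin-10, the protein of Charcot-Leyden crystals (ENSG00000105205, GRCh38 chromosome 19, 39731250 to 39738186, minus strand). It was close to silent before treatment, with counts of 0, 2 and 0 in the 3 untreated libraries. At 24 h it had 1.85, 2.41 and 2.57 CPM in ATRA cells, against 0.214, 0.0648 and 0.157 CPM in DMSO cells. Every ATRA library at that time lay above every DMSO library. At 72 h CLC stood at 47.8, 41.7 and 39.9 CPM in ATRA cells, against 0.228, 0.0405 and 0.0394 CPM in DMSO cells. At 120 h the ATRA libraries held 155, 138 and 120.4 CPM, against 0.124, 0.37 and 0.242 CPM in the DMSO libraries. The groups were far apart at both late times, and the ATRA level at 120 h was above that at 72 h in every library. The log2 fold change against DMSO was 4.02 ± 0.38 (SE, n = 3 each) at 24 h, with an edgeR adjusted p of 1.6e-11. It was 8.72 ± 0.25 at 72 h and 9.10 ± 0.21 at 120 h, with edgeR adjusted p-values of 3.26e-28 and 4.37e-32. At 4 and 12 h CLC had 1 to 3 counts in each ATRA library, against 0 to 6 in the DMSO libraries, and did not pass.

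The 250 bases before the RefSeq start of CLC (GRCh38.p14, chr19:39738030-39738279, minus strand, printed 5′ to 3′) are shown because CLC is the gene of the 9 with a large rise. Capitals mark the letters that GATA factors can bind, on either strand. They are AGATAA, its variant AGATAG, as well as TGATAA and the variant TGATAG. The sequence is from RefSeq, and the deposited gene model starts further upstream, so part of the window lies inside that model.
CLC: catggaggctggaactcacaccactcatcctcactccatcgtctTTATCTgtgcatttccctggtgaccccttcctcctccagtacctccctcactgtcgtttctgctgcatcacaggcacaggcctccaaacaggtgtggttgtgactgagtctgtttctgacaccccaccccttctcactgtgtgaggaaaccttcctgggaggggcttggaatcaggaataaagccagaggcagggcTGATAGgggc
The first match begins 206 bases and the second 10 bases before the start. Such a match stands in the same window of 4 of the 8 genes that the RefSeq table holds (CLC, MS4A2, FCER1A and IL5RA), and in 22.3% of 35116 promoters of this length. EPX and PRG2 are not among the 8. The letters GAGGAA, which the myeloid factor PU.1 can bind, stand on either strand in the windows of CLC, HDC and GATA1, and in 23.6% of all. A match describes letters only.

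PRG2 encodes major basic protein, the main protein of the eosinophil granule core (ENSG00000186652, chromosome 11, 57386794 to 57390657, minus strand). It was lower in ATRA than in DMSO cells from 12 h on, by a factor that grew between 24, 72 and 120 h. At 120 h PRG2 stood at 115, 106 and 91.4 CPM in ATRA cells, against 1903, 1891 and 1783 CPM in DMSO cells. The groups did not come near each other, and the log2 fold change was -4.16 ± 0.12 (SE) with an edgeR adjusted p of 2.17e-28. At 72 h the values were 233, 242 and 215 CPM in ATRA cells, against 1015, 1071 and 1110.4 CPM in DMSO cells, with a log2 fold change of -2.21. At 12 and 24 h the log2 fold changes were -0.51 and -0.68, with edgeR adjusted p-values of 0.000147 and 2.02e-06, and the groups did not overlap. At 4 h the ATRA libraries had 672, 665 and 678 CPM, against 697, 730 and 416 CPM in DMSO cells. The third DMSO value is replicate 5, which was low for PRG2, and the comparison did not pass (edgeR adjusted p 0.434). That library also differed from its group over the whole table. The chi-square per degree of freedom between 2 libraries was 47.9 and 49.2 for replicate 5 against replicates 2 and 4. Between replicates 2 and 4 it was 10.8. The library enters every comparison that uses DMSO cells at 4 h.

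The count of PRG2 is uncertain, since a readthrough gene model on the same strand (ENSG00000254979, 57387291 to 57427456) shares 39.2% of its exon length and fragments were counted in every gene they overlap. That model also covers SLC43A3, and it averaged 472 ± 43.6 CPM in ATRA cells, against 2325 ± 91.5 CPM in DMSO cells at 120 h (SD, n = 3 each). SLC43A3, a nucleobase transporter gene, averaged 380 ± 31.4 CPM in ATRA cells and 489 ± 27.2 CPM in DMSO cells at the same time. Its log2 fold change of -0.36 was small beside the -4.16 of PRG2. PRG3, a close relative of PRG2 next to it on chromosome 11 whose exons overlap no other gene on that strand, moved the other way. It averaged 3.14 ± 0.633 CPM in ATRA cells and 0.728 ± 0.277 CPM in DMSO cells at 120 h, with a log2 fold change of 2.10 ± 0.35 (SE) and an edgeR adjusted p of 1.78e-06. SLC43A3 and PRG3 were singled out after their values were seen.

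EPX encodes eosinophil peroxidase, which makes hypobromous acid (ENSG00000121053, chromosome 17, 58192726 to 58206170, plus strand). Of the 5 eosinophil granule genes it had the largest difference at 12 h. EPX then had 23.6, 27.8 and 27.1 CPM in ATRA cells, against 51.9, 58.0 and 58.1 CPM in DMSO cells. The groups did not overlap, and the log2 fold change was -1.10 ± 0.10 (SE) with an edgeR adjusted p of 3.24e-12. At 4 h they had been level, with means of 53.7 ± 0.798 CPM in ATRA cells and 54.4 ± 2.25 CPM in DMSO cells (SD, n = 3 each). The log2 fold change was -0.78 at 24 h and -0.71 at 72 h, and the change from 12 to 24 h did not pass (edgeR adjusted p 0.177). At 120 h EPX stood at 34.7, 27.4 and 23.9 CPM in ATRA cells, against 123, 119 and 103 CPM in DMSO cells. The groups were far apart, and the log2 fold change was -2.01 ± 0.10 (edgeR adjusted p 6.11e-21). The ATRA libraries lay below and the DMSO libraries above the untreated ones, which had 79.8, 78.5 and 86.0 CPM.

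RNASE2 encodes the eosinophil-derived neurotoxin and RNASE3 the eosinophil cationic protein, a pair of ribonucleases from a gene duplication (ENSG00000169385, chromosome 14, 20955452 to 20956436, and ENSG00000169397, chromosome 14, 20891336 to 20892348, both plus strand). Their GENCODE transcripts are identical at 88.9% of 720 aligned bases, with a longest identical run of 67 bases, so counts could pass between them and are uncertain to that extent. The 250 bases before each RefSeq start (GRCh38.p14, chr14:20955237-20955486 and chr14:20891135-20891384, plus strand) are shown because large parts of the windows are near copies while the levels of the genes differ. Capitals mark the letters TTGCNNAA on either strand, which C/EBP factors can bind.
RNASE2: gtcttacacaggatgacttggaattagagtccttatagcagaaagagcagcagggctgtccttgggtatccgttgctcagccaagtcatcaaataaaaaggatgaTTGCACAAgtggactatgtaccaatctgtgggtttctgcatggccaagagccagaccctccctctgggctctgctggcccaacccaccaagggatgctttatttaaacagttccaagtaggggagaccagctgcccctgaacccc
RNASE3: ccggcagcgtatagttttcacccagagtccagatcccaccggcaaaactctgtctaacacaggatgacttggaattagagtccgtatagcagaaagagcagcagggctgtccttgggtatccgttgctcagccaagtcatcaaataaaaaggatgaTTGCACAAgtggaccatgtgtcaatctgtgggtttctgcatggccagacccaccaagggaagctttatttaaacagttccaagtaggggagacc
The windows are identical at 192 of 199 aligned bases, and the rest of the 250 bases of each has no aligned counterpart. Each holds 1 such match, 145 bases before the start of RNASE2 and 94 before that of RNASE3. Of all promoters of this length 9.05% hold one, and of the other 6 genes of the set in the table none does.

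RNASE2 was lower in ATRA cells from 24 h on. At 12 h its log2 fold change of -0.12 did not pass (edgeR adjusted p 0.196), and with the replicate numbers as pairs within the 6 libraries of that time it did (-0.11, edgeR adjusted p 0.0207). At 24 h it had 54.5, 58.7 and 57.1 CPM in ATRA cells, against 73.7, 71.7 and 71.7 CPM in DMSO cells, a log2 fold change of -0.35 (edgeR adjusted p 0.000211). At 72 h the values were 25.2, 21.4 and 22.6 CPM in ATRA cells, against 52.8, 52.3 and 53.3 CPM in DMSO cells, a log2 fold change of -1.20. At 120 h RNASE2 stood at 8.04, 6.05 and 6.79 CPM in ATRA cells, against 75.9, 66.4 and 63.4 CPM in DMSO cells. The groups did not overlap at any of these times, and the log2 fold change at 120 h was -3.31 ± 0.09 (SE, edgeR adjusted p 3.15e-29).

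RNASE3 passed as lower in ATRA cells only at 120 h. It had 7.69, 8.09 and 7.78 CPM in ATRA cells at 24 h, against 6.27, 6.22 and 5.53 CPM in DMSO cells. This small rise of 0.39 on the log2 scale had an edgeR adjusted p of 0.0226 and did not pass in 5 of the 9 fits that left out a library or a replicate number. At 72 h RNASE3 averaged 6.42 ± 0.893 CPM in ATRA cells and 5.31 ± 0.816 CPM in DMSO cells (SD, n = 3 each), and the groups overlapped. At 120 h it had 0.956, 1.46 and 1.5 CPM in ATRA cells, against 7.11, 7.76 and 6.64 CPM in DMSO cells, a log2 fold change of -2.43 ± 0.18 (SE, edgeR adjusted p 1.72e-15). The count ratio of RNASE2 to RNASE3 was 3.61 ± 0.295 in ATRA cells and 10.1 ± 1.47 in DMSO cells at 72 h (SD, n = 3 each). At 24 h it was 7.23 ± 0.128 in ATRA cells and 12.1 ± 0.769 in DMSO cells, and untreated cells had 11.4 ± 1.12. The ratios of the treatments did not overlap at 24 and 72 h, and no test of the ratio was run.

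HDC encodes histidine decarboxylase, the enzyme that makes histamine (ENSG00000140287, chromosome 15, 50240122 to 50266060, minus strand). It was lower in ATRA cells at all 5 times. At 4 h HDC had 9.18, 10.5 and 7.88 CPM in ATRA cells, against 16.9, 17.5 and 15.3 CPM in DMSO cells. The groups were apart at this first time, with a log2 fold change of -0.84 ± 0.12 (SE) and an edgeR adjusted p of 5.93e-07. At 12 and 24 h it averaged 4.41 ± 0.883 and 4.12 ± 0.481 CPM in ATRA cells, against 16.8 ± 2.13 and 16.6 ± 1.77 CPM in DMSO cells (SD, n = 3 each). These are log2 fold changes of -1.90 and -2.03. At 120 h the values were 5.68, 7.23 and 7.26 CPM in ATRA cells, against 45.6, 53.6 and 58.4 CPM in DMSO cells. The log2 fold change of -2.96 ± 0.12 (edgeR adjusted p 4.35e-23) came with a DMSO level at 120 h above that of every other DMSO group.

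MS4A2 encodes the beta chain of the IgE receptor, which amplifies its signal (ENSG00000149534, chromosome 11, 60088259 to 60098473, plus strand). It was a low gene, with 21, 41 and 34 counts in the untreated libraries. At 120 h it had 0, 0 and 1 counts in ATRA cells, against 18, 22 and 27 counts in DMSO cells. The level in DMSO cells was 52.9 times that in ATRA cells, with an exact 95% counting interval of 9.17 to 2119. The edgeR adjusted p was 2.2e-07. At 72 h it had 9, 8 and 3 counts in ATRA cells, against 12, 20 and 25 in DMSO cells, and its log2 fold change was -1.49 (edgeR adjusted p 0.00498). Without replicate 5 the adjusted p at 72 h was 0.142. From 4 to 24 h MS4A2 averaged 0.622 to 0.624 CPM in ATRA cells and 0.988 to 1.15 CPM in DMSO cells, and did not pass.

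IL5RA pairs with the shared beta chain CSF2RB to form the interleukin-5 receptor (ENSG00000091181, chromosome 3, 3065935 to 3126815, minus strand). It held 301 counts in all libraries together. At 120 h it had 2, 6 and 7 counts in ATRA cells, against 19, 26 and 18 counts in DMSO cells. The groups did not overlap, and the log2 fold change was -1.73 ± 0.51 (SE) with an edgeR adjusted p of 0.00302. At the earlier times IL5RA averaged 0.169 to 0.358 CPM in ATRA cells and 0.234 to 0.707 CPM in DMSO cells, the groups overlapped and no comparison passed. Of its exon length 5.37% lies opposite other genes, among them TRNT1, a gene for a tRNA-modifying enzyme with 28877 counts. TRNT1 averaged 24.7 CPM in ATRA cells and 36.5 CPM in DMSO cells at 120 h, and its part in the IL5RA counts was not tested. The share of exon length opposite other gene models was larger for MS4A2 (100%), PRG2 (63.5%), GATA1 (48.6%), HDC (28.4%) and EPX (18.6%). The model opposite MS4A2 held 5 counts in all libraries together, beside 659 for MS4A2, and that opposite PRG2 129, beside 618763. Those opposite HDC held 148, 46 and 4 counts, beside 13439 for HDC. MKS1, opposite EPX, held 11955 counts beside 48697, and the model opposite GATA1 787 beside 2715. The part of those models in the counts was not tested either.

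GATA1 (ENSG00000102145, chromosome X, 48783141 to 48798477, plus strand) was the gene besides CLC that was higher in ATRA cells at more than 1 time. At 4 h it had 3.05, 3.38 and 3.38 CPM in ATRA cells, against 1.80, 2.16 and 1.97 CPM in DMSO cells. At 12 h the values were 3.71, 3.85 and 4.49 CPM in ATRA cells, against 2.01, 2.95 and 2.52 CPM in DMSO cells. Both pairs of groups stood apart, with log2 fold changes of 0.72 ± 0.21 and 0.68 ± 0.20 (SE) and edgeR adjusted p-values of 0.0101 and 0.00581. Without replicate 2 these p-values were 0.0604 and 0.0674. At 24 h GATA1 averaged 2.85 ± 0.712 CPM in ATRA cells and 2.5 ± 0.311 CPM in DMSO cells (SD, n = 3 each) and did not pass. At 72 h it had 3.62, 2.73 and 3.32 CPM in ATRA cells, against 2.28, 1.66 and 1.97 CPM in DMSO cells, a log2 fold change of 0.71 (edgeR adjusted p 0.00499). With the mean of DMSO at 24 and 120 h as the control the value at 72 h was -0.23 and did not pass. At 120 h GATA1 had 5.12, 5.23 and 2.53 CPM in ATRA cells, against 5.83, 5.67 and 5.43 CPM in DMSO cells. The third ATRA library, replicate 5, was low, and the log2 fold change of -0.40 had an edgeR adjusted p of 0.0609. Over left-out libraries the value ran from -0.58 to -0.089, the smallest without that library. With the replicate numbers as pairs within the 6 libraries of that time, the adjusted p was 0.0301.

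**Figure D2:**
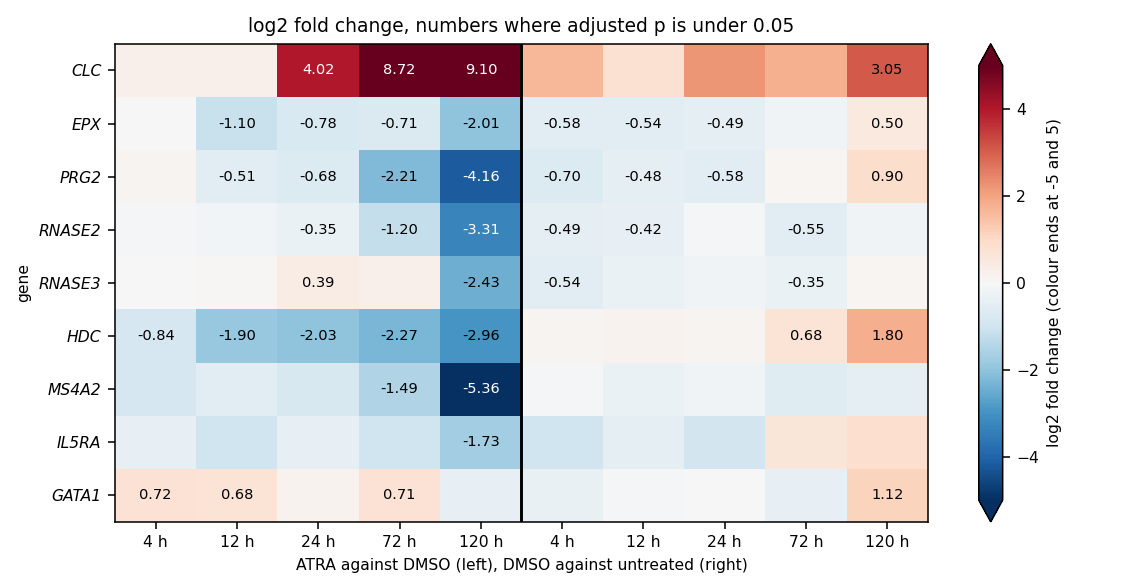
Colour gives the log2 fold change of the 9 tested genes (rows) for ATRA against DMSO and for DMSO against untreated cells at 5 times (columns, hours). Values are printed where the edgeR adjusted p is under 0.05. On the ATRA side the CLC row turns red at 24 h and the PRG2, RNASE2 and HDC rows deepen in blue to 120 h. At 120 h on the DMSO side CLC, of low counts there, EPX, PRG2, HDC and GATA1 have positive values printed.

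The change of the ATRA effect between neighbouring times was tested in the same fit. It passed in at least 1 of the 4 steps for 8 of 9 genes, against 63.9% of all genes. From 4 to 12 h it went down for EPX, PRG2 and HDC, by log2 differences of -1.08, -0.64 and -1.06, which is 3 of 9 genes against 14% of all genes. From 12 to 24 h 0 of 9 passed in edgeR against 6.9% of all genes, and 3 had an unadjusted p under 0.05. CLC passed there in DESeq2 and in limma-voom. From 24 to 72 h the effect went up by 4.70 ± 0.89 (SE) for CLC and down by -1.53 and -0.85 for PRG2 and RNASE2, 3 of 9 against 45.9%. From 72 to 120 h it went down for 7 of 9 genes, EPX, PRG2, RNASE2, RNASE3, HDC, MS4A2 and GATA1, against 39.3% of all genes in either direction and 21.8% in that one. For HDC and GATA1 the level in ATRA cells did not fall over this step. The HDC mean went from 4.97 to 6.72 CPM in ATRA cells and from 24.1 to 52.5 CPM in DMSO cells. The GATA1 mean went from 3.23 to 4.29 CPM in ATRA cells, with overlap, and from 1.97 to 5.64 CPM in DMSO cells. RNASE3 changed by -2.70 ± 0.23 (SE, edgeR adjusted p 1.49e-12), from no passing difference at 72 h to a lower level at 120 h. The change for CLC from 72 to 120 h did not pass (edgeR adjusted p 0.776).

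DMSO culture itself moved several of these genes. At 4 h EPX, PRG2, RNASE2 and RNASE3 were lower than in untreated cells, 4 of 9 against 31.4% of all genes, by 0.49 to 0.70 on the log2 scale. PRG2 had 697, 730 and 416 CPM in DMSO cells at 4 h, against 1001, 980.1 and 1013 CPM in untreated cells. At 12 h EPX, PRG2 and RNASE2 were lower, 3 of 9 against 22.7%, and at 24 h EPX and PRG2, 2 of 9 against 19.1%. At 72 h RNASE2 and RNASE3 were lower and HDC higher, 3 of 9 against 51.6%. The RNASE3 value at 72 h (edgeR adjusted p 0.0354) did not pass with a term for lane 2 against lane 3 (0.0568). That term cannot adjust for lane 4, where the untreated libraries ran. Without the filter on low counts the RNASE3 value did not pass either (edgeR adjusted p 0.0729). It passed in 3 of 9 fits that left out libraries, and its log2 fold change of -0.35 ran from -0.47 to -0.18 over them. The call was lost without replicate 2, without replicate 4, and without 1 library of untreated replicate 2 or 5 or of DMSO replicate 2 or 4. At 120 h CLC, EPX, PRG2, HDC and GATA1 were higher, 5 of 9 against 21.9% of all genes. HDC rose to 52.5 ± 6.42 CPM in DMSO cells at 120 h, against 15.0 ± 1.40 CPM in untreated cells (SD, n = 3 each), a log2 fold change of 1.80. PRG2 rose by 0.90 to 1859 ± 65.8 CPM in DMSO cells, against 998 ± 16.8 CPM in untreated cells. CLC had 3, 9 and 7 counts in DMSO cells at 120 h, against 0, 2 and 0 in untreated cells, a ratio of 9.68 with an exact 95% counting interval of 2.34 to 85.7. Its edgeR adjusted p of 0.0124 was 0.116 without replicate 5, 0.0793 without untreated replicate 5 and 0.0624 without DMSO replicate 4. Untreated, 4 h and 12 h libraries ran in lane 4 and later ones in lanes 2 and 3, so lane and time cannot be told apart in the comparisons from 24 h on. ATRA and DMSO libraries of 1 time shared lanes.

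Per kilobase of exon, the order of the 9 genes in untreated cells was PRG2 (422 ± 7.09 CPM per kb), RNASE2 (103 ± 6.39), EPX (20.4 ± 1.01), RNASE3 (8.69 ± 0.588), HDC (2.56 ± 0.238), MS4A2 (0.271 ± 0.0471), GATA1 (0.267 ± 0.0704), IL5RA (0.0431 ± 0.00832) and CLC (0.0325 ± 0.0562). MS4A2 and GATA1 overlapped in this order, as did IL5RA and CLC, and the other neighbours did not. The length is that of all exons of the merged gene models, from 727 bases for CLC to 10925 for IL5RA. Order and ranks by this level therefore depend on those models as well as on the counts. PRG2 ranked 535 of 22971 genes by this level in ATRA cells at 120 h, against 31 in DMSO cells at 120 h and 70 in untreated cells. CLC ranked 119 in ATRA cells at 120 h, against 14609 in DMSO cells, with 189 ± 23.5 and 0.337 ± 0.169 CPM per kb. In ATRA cells at 120 h CLC was thus first of the 9 and PRG2, with 44.1 ± 5.08 CPM per kb, second. RNASE2 and EPX followed with 9.22 ± 1.33 and 7.18 ± 1.38 CPM per kb and overlapped. The level summed over EPX, PRG2, RNASE2 and RNASE3 was 141 ± 17.6 CPM in ATRA cells and 2050 ± 81.5 CPM in DMSO cells at 120 h (SD, n = 3 each), and PRG2 gave 73.8% of it in ATRA cells and 90.7% in DMSO cells.

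**Figure D3:**
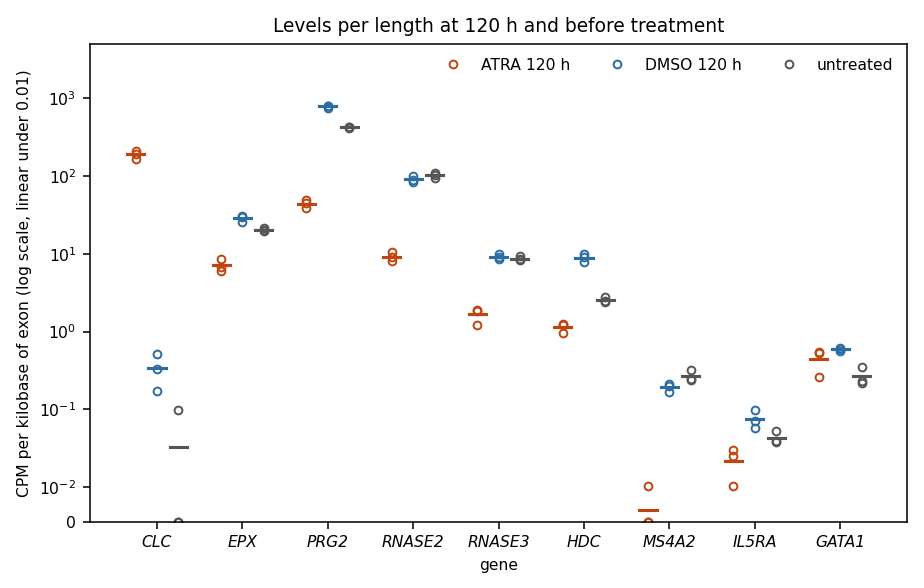
Level per kilobase of exon (CPM per kb, log scale, linear under 0.01) of the 9 genes in ATRA cells at 120 h, DMSO cells at 120 h and untreated cells. Circles are libraries (3 a group) and bars their means. CLC at 189 CPM per kb in ATRA cells stands above every other gene there, against 0.337 in DMSO cells, and MS4A2 lies at 2 libraries with 0 in ATRA cells.

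Genes of the same cells and pathways were counted from lists, of which up to 4 members with the smallest p are described, while further names in small counts were added after their values were seen. Each count at 120 h stands beside 34.9% of all genes tested that were higher, 35.6% that were lower and 70.6% in either direction, and each median beside the -0.03 of all genes. Of 11 other eosinophil genes 10 were tested, and at 120 h 8 were higher and 1 lower in ATRA cells, with a median log2 fold change of 1.63. CCR3, the eotaxin receptor of eosinophils, averaged 10.9 ± 1.22 CPM in ATRA cells and 0.107 ± 0.102 CPM in DMSO cells at 72 h (SD, n = 3 each), and its log2 fold change was 3.57 at 4 h, 6.56 at 72 h and 4.28 at 120 h. ADGRE1, whose product EMR1 is an eosinophil surface receptor in humans, averaged 210.3 ± 10.9 CPM in ATRA cells and 1.98 ± 0.178 CPM in DMSO cells at 120 h, a log2 fold change of 6.72. LGALS12, a galectin, and SMPD3, a neutral sphingomyelinase, rose by 0.59 and 2.25 at 120 h. The lower gene was IL1RL1, the interleukin-33 receptor of basophils and mast cells, which fell by 1.32 at 120 h. At 12, 24 and 72 h IL1RL1 was higher in ATRA cells, with log2 fold changes of 1.33, 0.84 and 1.44, and at 4 h it was lower (-0.58).

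Of 19 other mast cell and basophil genes 9 were tested, and at 120 h 3 were higher and 4 lower, a share near that of all genes. ALOX5AP, which presents arachidonic acid to 5-lipoxygenase, had a log2 fold change of 9.78 at 120 h, while LTC4S, the enzyme that makes leukotriene C4, had one of -3.48. Of the LTC4S exons 32.7% by length also belong to a neighbour on the same strand. TPSB2, a mast cell tryptase with near-identical copies, was lower by 4.62 at 120 h. It was a low gene, with 275 counts in all libraries together. At 120 h TPSB2 averaged 0.0312 CPM in ATRA cells, under the floor of 0.049 CPM, and 0.915 CPM in DMSO cells. SRGN, the proteoglycan core of granules, changed direction, with log2 fold changes of 0.39, 0.87 and 0.43 at 12, 24 and 72 h and of -0.96 at 120 h, all of which passed. TPSAB1, a near-identical tryptase copy, was the other lower gene and CD200R1 and HNMT the other higher ones. Of 4 tested genes for breaking down and sensing histamine all 4 were higher at 72 and at 120 h. Of all genes tested 32.1% were higher at 72 h and 34.9% at 120 h. AOC1, a diamine oxidase that degrades histamine, averaged 62.1 ± 7.34 CPM in ATRA cells and 11.7 ± 1.18 CPM in DMSO cells at 120 h (SD, n = 3 each). The receptors HRH2 and HRH1 rose by 2.92 and 2.54 at 120 h, though HRH2 was lower at 4 h (-0.65), and HNMT, which methylates histamine, by 3.21 from a level near 0.

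Of 14 genes of IgE receptor signalling 8 were higher and 4 lower at 120 h, with a median log2 fold change of 0.49. Of all genes tested 34.9% were higher and 35.6% lower, with a median of -0.03. The kinase gene LYN rose by 3.70, the exchange factor VAV1 by 2.48 and the adaptor LCP2 by 1.31. FCER1G, the gamma chain that IgE and IgG receptors share, rose by 3.05, but 95.9% of its exon length is shared with another gene on its strand. The lower genes were LAT, LAT2, PLCG1 and GAB2, of which LAT2 was higher at 4 and 12 h (log2 fold changes 0.55 and 0.51). Of 9 genes of the common beta chain receptors and their signalling 4 were higher and 4 lower. CSF2RB, the beta chain that IL5RA needs, averaged 235 ± 25.7 CPM in ATRA cells and 17.5 ± 1.9 CPM in DMSO cells at 120 h (SD, n = 3 each), a log2 fold change of 3.75 after one of -0.55 at 4 h, and JAK2 and PIM1 rose by 3.31 and 4.66. SOCS2, an inhibitor of this signalling, fell by 4.00, and CSF2RA rose while CISH, STAT5A and STAT5B fell.

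Of 14 transcription factor genes of these lineages 8 were higher and 6 lower at 120 h, against 34.9% and 35.6% of all genes tested. GATA2, which acts with GATA1 in mast cells, basophils and eosinophils, averaged 5.24 ± 0.215 CPM in ATRA cells and 111 ± 8.0 CPM in DMSO cells, a log2 fold change of -4.40. It was lower than in DMSO cells already at 4 h, by 1.09, when GATA1 was higher. The GATA2 means at 4 h were 34.15 CPM in ATRA cells and 72.5 CPM in DMSO cells, beside 39.5 CPM in untreated cells. CEBPE, a factor of late granulocyte maturation, rose by 1.94 at 4 h and by 2.98 at 120 h, ID2 rose by 4.87 and GFI1 fell by 2.28 at 120 h. Of 5 tested galectin genes besides CLC and LGALS12, 4 were higher at 120 h. LGALS9, LGALS9B and LGALS9C had log2 fold changes of 4.92, 6.32 and 5.06, and they are near-identical copies, so their counts are uncertain. LGALS3 rose by 0.67 at 120 h and was lower at 12, 24 and 72 h, by log2 fold changes of -1.36, -2.85 and -1.09. Of 4 tested genes of the ribonuclease A family and its inhibitor besides RNASE2 and RNASE3, RNASE4, ANG and RNASE6 rose and the inhibitor RNH1 fell by 1.14 at 120 h. RNASE4 and ANG share 34.2% and 31.8% of their exon lengths with other genes, so their counts are uncertain.

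**Figure D4:**
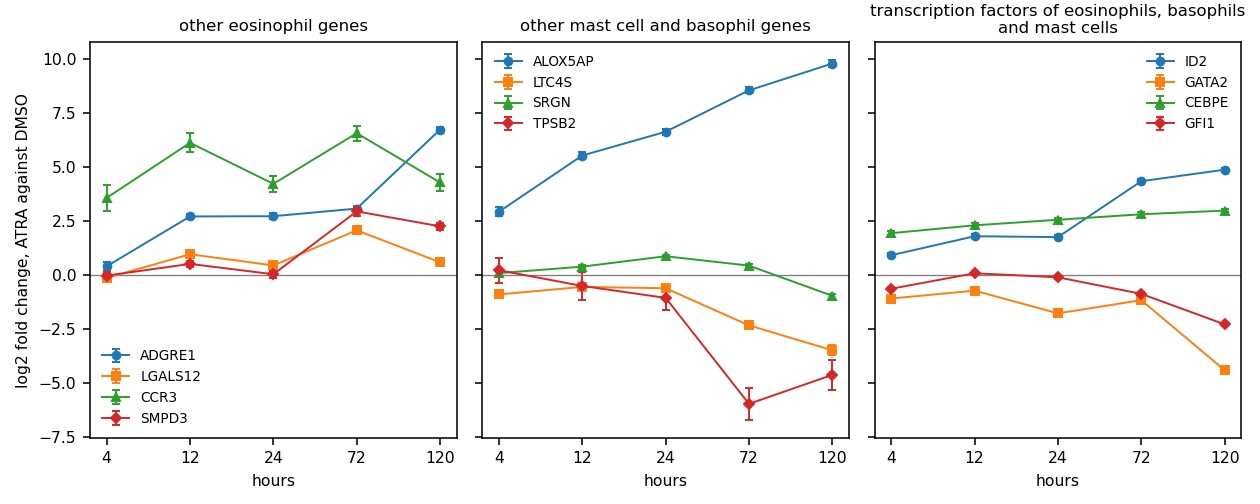
Log2 fold change of ATRA against DMSO cells (points, with SE bars) at 5 times, for 4 genes each of the lists of other eosinophil genes, other mast cell and basophil genes, and transcription factors. ALOX5AP climbs to 9.78 and ADGRE1 to 6.72 at 120 h, while GATA2 ends at -4.40 and TPSB2, a gene of low counts, at -4.62.

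Markers of other cell types changed as well. Of all genes tested 34.9% were higher and 35.6% lower at 120 h. Of 9 tested promyelocyte and neutrophil granule genes 4 were higher and 4 lower at 120 h. The level summed over all 10 genes of that list was 759 to 1016 CPM in ATRA cells, against 9429 to 11560 CPM in DMSO cells. MPO averaged 423 ± 93.5 CPM in ATRA cells and 9624 ± 1063 CPM in DMSO cells at 120 h (SD, n = 3 each), a log2 fold change of -4.51 beside the -4.16 of PRG2. MPO was also lower at 12 and 72 h, as were EPX, PRG2 and HDC, with log2 fold changes of -0.58 and -0.60. At 4 and 24 h its values were -0.12 and -0.19 and did not pass. Other genes of the MPO list went both ways before 120 h. PRTN3 averaged 2848 CPM in ATRA cells and 985 CPM in DMSO cells at 24 h. At 72 h the means in ATRA and DMSO cells were 1190 and 464 CPM for PRTN3 and 274 and 6.37 CPM for DEFA4. They were 0.382 and 40.1 CPM for CTSG and 123 and 193 CPM for AZU1. Of 9 tested monocyte and dendritic cell genes 8 were higher and 1 lower at 120 h. The level summed over all 12 of that list was 142 to 171 CPM in ATRA cells, against 13.1 to 14.4 CPM in DMSO cells. Of 6 tested lymphocyte genes 4 were higher and 2 lower. The level summed over all 9 of that list was 346 to 407 CPM in ATRA cells, against 60.5 to 80.8 CPM in DMSO cells. It was led by NKG7, whose exons are 99.9% shared with another gene. Of 25 erythroid and megakaryocyte genes 7 were tested, 2 higher and 2 lower. The sums over all 25 were 86.7 to 93.8 CPM in ATRA cells, against 95.7 to 106 CPM in DMSO cells. The higher genes were GFI1B, with means of 51.2 CPM in ATRA cells and 6.53 CPM in DMSO cells, and HBG2, with 0.611 and 0.0803 CPM. Their log2 fold changes were 2.97 and 2.87, and those of the lower genes NFE2 and LMO2 were -3.65 and -0.72. The erythroid genes ALAS2, HBA1, HBG1, GYPB, AHSP and CA1 and the platelet gene PF4 had 0 counts in every library. The part of other cell types in the results was not tested.

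Likeness was measured as Pearson's r of mean log2 CPM over the 11 groups, among 12806 genes, as a description of points that share libraries. The genes most like CLC were PPP3CB, IRF9 and OAS2 (r = 0.988, 0.984 and 0.981), with 86.9% of the IRF9 exon length shared with another gene. The measure takes no account of the size of a change. At 120 h the log2 fold change against DMSO was 0.48 for PPP3CB, 2.91 for IRF9 and 8.90 for OAS2, beside 9.10 for CLC. For PRG2 the most alike genes were EIF2S3, ACO1 and CARHSP1 (0.972, 0.97 and 0.962), and for EPX FGFR4 and ACER2 (0.942 and 0.938). For RNASE2 they were KLHL13, METRN and PKP4 (0.993, 0.99 and 0.99), and for RNASE3 MIR3158-1, DPCD and MATK (0.95, 0.949 and 0.947). HDC was most like LRRC42, HDHD5 and PDE4A (0.936, 0.924 and 0.923), and MS4A2 most like PALS2, B4GALT2 and UCK2 (0.996, 0.991 and 0.989). IL5RA was most like PRDM8, RNMT and DNAJB5 (0.961, 0.933 and 0.921), and GATA1 had the weakest likeness, to S100A2, S100A6 and BBIP1 (0.86, 0.812 and 0.797). Within the set, r was 0.976 between RNASE2 and MS4A2 and 0.9 between EPX and HDC, and CLC ran opposite to MS4A2 (-0.90), RNASE2 (-0.89) and PRG2 (-0.85).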

How the data were processed

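Stranded total RNA libraries were sequenced as paired ends, per the labels' protocols. The deposited values are raw counts of fragments per gene, made by the authors with featureCounts 1.5.1 in stranded mode, a fragment counting in every gene it overlaps, on merged Ensembl and FANTOM CAT models (GRCh38), per the file headers. The submitters' processing notes list STAR 2.5.2b, Subread 1.5.1 and Trimmomatic 0.36. Symbols came from a gene name table that matched 56948 of 58970 Ensembl identifiers, and transcripts from GENCODE. Sequences are from RefSeq (GRCh38.p14).

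Groups and replicate numbers came from the sample titles. Counts were tested in edgeR 4.0.16 (R 4.3.3): filterByExpr, TMM factors from 0.827 to 1.11, 1 quasi-likelihood model of 33 libraries with a mean per group (biological coefficient of variation 0.0769), and Benjamini-Hochberg adjustment over all genes of each of 14 contrasts. The test was checked on simulated counts. SEs are those implied by the F statistic, and log CPM used a prior count of 2. Floors (3 counts) and intervals (95%) cover counting error only. The genes and lists were chosen with earlier results of these data known, and each list names up to 4 tested genes of smallest p over the 5 ATRA comparisons. Some genes that these rules cover are not reported here. Alternatives were RLE scaling, other filters, DESeq2 1.42.0, limma-voom (limma 3.58.1), smaller fits, a replicate block, sequencing lane, scaling without mitochondrial and small RNA genes, another control at 72 h and left-out libraries. Replicates of a group differed by more than sampling noise. Titles share replicate numbers across groups, and the deviations of same-numbered libraries from their group means were correlated. All 3 pairs exceeded 0.1 for ATRA and DMSO at 12 h (0.534, 0.548 and 0.198) and at 120 h (0.216, 0.333 and 0.52) and for DMSO at 4 h and untreated cells (0.287, 0.274 and 0.4). In the other comparisons with DMSO or untreated cells as control at least 1 pair did not, so only these 3 were taken as paired.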

Additional observations from a re-analysis of the deposited data

Results flagged for a closer look

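The ATRA effect of 8 of the 9 tested genes differed in at least 1 of the 4 steps between neighbouring times, against 63.9% of all genes tested, by edgeR's quasi-likelihood test of the difference with Benjamini-Hochberg adjustment over all genes. From 4 to 12 h the log2 fold change went down by -1.08 for EPX, -0.64 for PRG2 and -1.06 for HDC. From 24 to 72 h it went up by 4.70 for CLC and down by -1.53 for PRG2 and -0.85 for RNASE2. From 72 to 120 h it went down by -1.30 for EPX, -1.95 for PRG2, -2.11 for RNASE2, -2.70 for RNASE3, -0.69 for HDC, -3.86 for MS4A2 and -1.11 for GATA1. For HDC and GATA1 the mean in ATRA cells did not fall over this step, and that in DMSO cells rose by a larger factor. The value for MS4A2 rests on 0, 0 and 1 counts in ATRA cells at 120 h and had an adjusted p of 0.0895 without replicate 2, and that for GATA1 had one of 0.0528 without replicate 5.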

How the results depend on the processing

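Of 126 gene-by-comparison results, 57 passed as reported, 13 passed under an alternative only, and the other 56 passed nowhere. Of 1370 alternative values for the first 70 results, 1317 kept direction and side of the threshold, 22 lost the call and 28 gained it. With the mean of DMSO at 24 and 120 h as control the value at 72 h was -0.032 for RNASE3 and -0.23 for GATA1. MS4A2 at 12 h ran from -0.995 to 0.0364 over left-out libraries. The number of genes that passed at 4 h ran from 1 to 3 over left-out libraries. From 12 to 24 h the change passed for 1 gene, CLC, without the filter on low counts, in DESeq2 and in limma-voom, and for 0 to 1 over left-out libraries. GATA1 at 120 h (log2 fold change -0.40) passed without the filter and in limma-voom. IL5RA could not be tested with a filter of 1 CPM in 3 libraries. Where a left-out library leaves 2 in a group, the spread is that of all groups.

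The replicate numbers were taken as pairs only in the comparisons whose 3 same-numbered pairs all correlated above 0.1. For these a replicate block within the 6 libraries compared, chosen after seeing the data, gained the calls of RNASE2 at 12 h (-0.11) and GATA1 at 120 h (-0.39) and changed no other. With a replicate block over all libraries RNASE3 in DMSO cells at 12 h against untreated cells passed (-0.35, edgeR adjusted p 0.0431), and every count of genes was within 1 of that reported. Low counts limit CLC before 24 h, MS4A2 and IL5RA. The labels call the replicates biological without naming separate cultures, so p-values measure the spread between these libraries, which may be technical in part.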
